A study of Gasterosteus aculeatus with 12 samples.

Results

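Of the 35808 peaks of open chromatin called in stickleback primary spermatocytes, 28764 lay on the 21 chromosomes. In the part of these chromosomes studied here, 994 peaks stood alone. Each was narrower than 2500 bp and had no other peak edge within 20 kb on either side. They were chosen by the widths and positions of peaks in the deposited list, on 17 of the 21 chromosomes (all but IV, XI, XIX and XXI), with a summit more than 2 Mb from position 0 and from the end of the chromosome's last peak. That interior held 15539 peaks, so the isolated peaks made up 6.40% of them (95% Wilson interval, 6.02% to 6.79%). The interval covers counting error only and takes peaks as independent, although neighbouring peaks share the stretch between them. The peaks came from ATACseq of 6 libraries, 3 from a wild-derived marine strain and 3 from a wild-derived freshwater strain of the River Tyne, each made from 50000 cells, sorted on scatter, of the pooled testes of 3 adult males late in a winter light regime. A naked DNA library was also made from each pool and was not analysed here. Whether the authors' peak calls used it as background is not given in the sources used here. All 6 ATACseq libraries were merged into 1 list, so no value below carries an error between pools, the ecotypes cannot be compared, and the identity of the sorted cells was not checked here.

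In ATACseq a transposase cuts DNA that is not wrapped tightly in nucleosomes and inserts sequencing adapters, so that promoters, enhancers and other open sites gather reads. Such sites tend to lie close together in gene-rich sequence and far apart in gene-poor sequence. Primary spermatocytes are the germ cells of the testis that undergo meiosis I, in which homologous chromosomes pair and exchange segments. In species without PRDM9 the breaks that start this exchange are thought to fall preferentially in open chromatin. The stickleback lacks PRDM9. The paper reports an association of male breaks and crossovers with active promoters. It also reports crossovers away from promoters, where accessibility was decreased. The fold enrichment of a peak is the ratio of the reads at its summit to the background of the peak caller, and its q-value is the caller's p-value after correction for multiple testing. Both are the authors' values.

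Most interior peaks, isolated or not, had a fold enrichment under 5. At the median, isolated peaks were somewhat weaker and narrower than the non-isolated peaks below the same width limit. The fold enrichment of isolated peaks ran from 1.15 to 25.0, with a median of 3.25 (quartiles 2.20 and 6.77). Their width ran from 200 to 2460 bp, with a median of 603 bp (quartiles 281 and 1157 bp). The 13663 non-isolated peaks of the same interior and below the same width limit had a median fold enrichment of 3.74 (quartiles 2.16 and 9.24) and a median width of 761 bp (quartiles 338 and 1357 bp). The lower quartiles of fold enrichment thus lay close together, and the upper quartile was lower in isolated peaks. Because the rule used positions and widths of the same peaks, and no pool has values of its own, these differences are given as descriptions, with the spread between chromosomes and without a test.

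A fold enrichment of at least 5 was reached by 328 isolated peaks, 33.0%, and by 41.9% of the non-isolated peaks below the same width. Among all interior peaks, wide ones included, the share was 44.5%. A q-value of at most 1e-10 was reached by 877 isolated peaks, 88.2%, and by 85.3% of the non-isolated peaks below the same width. Over all interior peaks that share was 86.3%. By this stricter q-value the isolated peaks as a whole were thus no poorer than the non-isolated ones as a whole. Of the isolated peaks, 117 (11.8%) had a q-value above 1e-10. Among the non-isolated peaks below the same width, the share was lowest, 78.3%, within 1000 bp of another peak. It was 84.8% at 1000 to 2000 bp. At 2000 to 5000, 5000 to 10000 and 10000 to 20000 bp it was 90.2%, 90.1% and 90.7%. Isolated peaks lay below these last values, with 89.8% at 20000 to 30000 bp, 86.8% at 30000 to 50000 bp and 86.3% beyond. At the top of the range, 17 isolated peaks (1.71%) and 348 non-isolated peaks below the same width (2.55%) had a fold enrichment of at least 20.

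**Figure D1:**
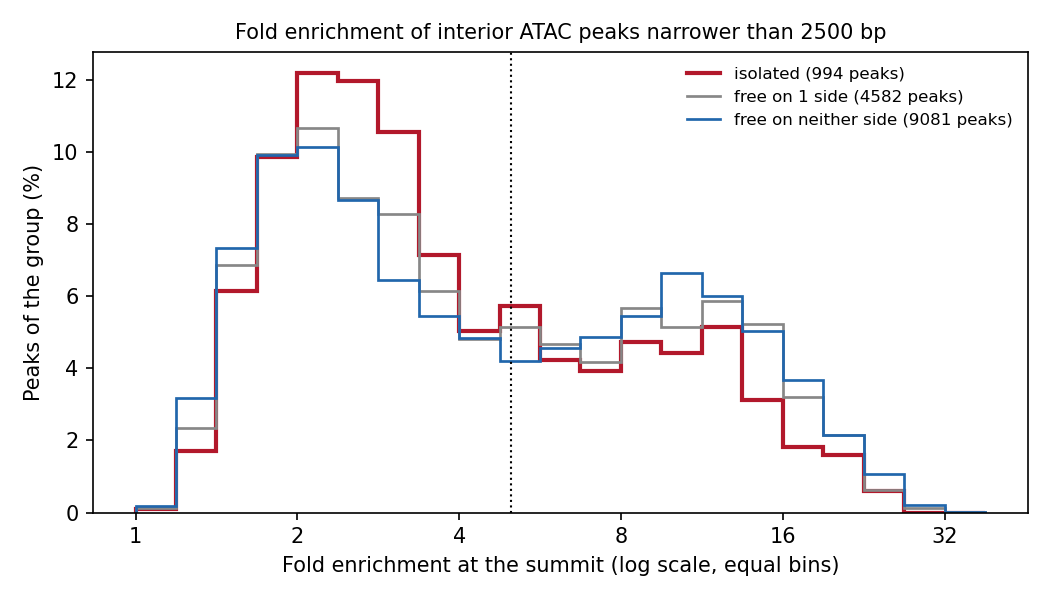
Share of peaks (%, vertical axis) by fold enrichment at the summit (horizontal axis, log scale, equal bins) for isolated peaks, peaks with no other edge within 20 kb on 1 side only, and peaks with another edge within 20 kb on both sides, all narrower than 2500 bp. The dotted line marks a fold enrichment of 5. The isolated peaks (994) stand above both other groups in each bin from 2.00 to 5.66 and below both in each bin from 5.66 upward.

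The distribution of fold enrichments had its mode at low values in isolated peaks, with a long upper tail. The fullest bin held 121 isolated peaks at 2.00 to 2.38. From 4.00 to 16.0 the counts in successive bins were 50, 57, 42, 39, 47, 44, 51 and 31, with no second mode that stood clear of its neighbours. Split at a fold enrichment of 5, the 328 stronger isolated peaks had a median fold enrichment of 9.62 and a median width of 1348 bp, against 10.4 and 1430 bp in the non-isolated peaks. The 666 weaker isolated peaks had a median fold enrichment of 2.47 and a median width of 374 bp, against 2.32 and 394 bp in the non-isolated peaks. The split is by fold enrichment itself, so it bounds the medians of fold enrichment on each side.

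Width and fold enrichment went together, with a rank correlation of 0.72 across the isolated peaks and 0.78 across the non-isolated peaks (Spearman, 994 and 13663 peaks that share libraries and background). Among the narrowest peaks, under 300 bp, the median fold enrichment was 2.30 in 269 isolated peaks and 2.06 in the non-isolated ones. From 300 to 600 bp it was 2.45 in 226 isolated peaks and 2.28 in the non-isolated ones. The order turned in wider peaks. From 600 to 1200 bp the median was 4.06 in 267 isolated peaks and 4.58 in the non-isolated ones, and from 1200 to 2500 bp it was 10.3 in 232 isolated peaks and 11.1 in the non-isolated ones. The narrowest class held 27.1% of the isolated peaks and 20.8% of the non-isolated ones, and the widest class held 23.3% and 31.3% of these groups. Peaks of exactly 200 bp, the smallest width in the list's interior, made up 3.32% of the isolated peaks (33 peaks) and 1.68% of the non-isolated ones. At equal fold enrichment the q-values were alike. Between a fold enrichment of 10 and 15, the median −log10 q-value was 591.6 in 104 isolated peaks and 591.2 in 1897 non-isolated peaks. The summit lay at a median of 51.3% of the peak's width in isolated peaks and 49.6% in non-isolated peaks, near the centre in both.

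Isolation was the far end of a relation that was not monotonic. Taking all interior peaks narrower than 2500 bp, the 4832 peaks within 1 kb of another peak had a median fold enrichment of 2.87. The median was 3.67 at 1 to 2 kb, 4.82 at 2 to 5 kb and 4.98 at 5 to 10 kb, where it was highest. It was 4.20 at 10 to 20 kb, the last class outside the rule. Inside the rule it was 3.54 for the 501 peaks at 20 to 30 kb, 3.10 for the 340 peaks at 30 to 50 kb and 2.80 for the 153 peaks more than 50 kb from any other. The share of peaks that reached 5 followed the same course, with 32.3% within 1 kb, 49.9% at 5 to 10 kb, 36.3% at 20 to 30 kb and 26.8% beyond 50 kb. Below the width limit, the most isolated and the most crowded peaks thus both had lower shares of strong members than peaks at 5 to 10 kb. They differed in the share with a q-value of at most 1e-10, 86.3% beyond 50 kb and 78.3% within 1 kb. The width limit also took strong peaks out, as 45.2% of all non-isolated interior peaks reached 5, against 41.9% of those below it. The 20 kb limit cut through a slope and not through a step.

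**Figure D2:**
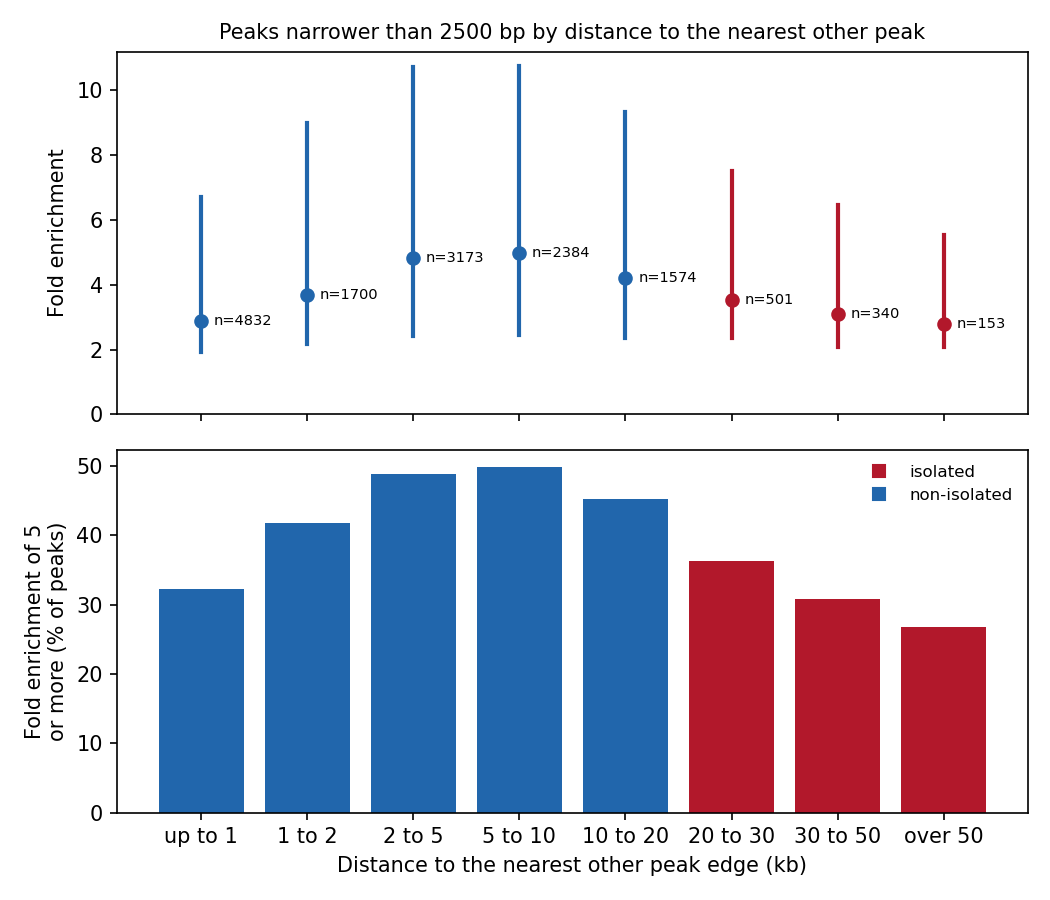
Fold enrichment (upper panel, median as a point and quartiles as a bar) and share of peaks whose fold enrichment was 5 or more (lower panel, %) by distance in kb to the nearest other peak edge, for interior peaks narrower than 2500 bp. The 3 right-hand classes are the isolated peaks, and both panels peak at 5 to 10 kb, with a median of 4.98 and a share of 49.9%.

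Peaks that bordered a long stretch on 1 side only lay between the 2 other groups. The 4582 such peaks had a median fold enrichment of 3.62, a median width of 746 bp and a share of 40.5% that reached 5. The 9081 peaks with another edge within 20 kb on both sides had 3.86, 768 bp and 42.6%. The isolated peaks, with 3.25, 603 bp and 33.0%, were further from the 1-sided peaks than the 1-sided peaks were from the crowded ones.

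The limits of the rule cut close on all 3 measures. The isolated peak nearest to the distance limit, chrII:18348147-18350423 with a fold enrichment of 17.4, had its neighbour at 20016 bp. The first peak left out, chrXX:3409039-3409753 with 3.85, had its neighbour at 19995 bp. The widest isolated peak had 2460 bp, and the narrowest ones left out for their width, on chromosomes VI and XIII, had 2508 bp and fold enrichments of 8.05 and 9.46. Only 26 interior peaks stood alone but were at or above the width limit. Their fold enrichments began at 5.32, with a median of 13.2 and a highest value of 23.5 at chrIII:10280597-10283251, so the width limit removed strong peaks only. The summits nearest to the end limit lay 2002695 bp from an end on chromosome III (inside, fold enrichment 2.50) and 1997167 bp on chromosome XV (outside, 2.80).

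The stretches around isolated peaks were measured from the end of the peak before to the start of the peak after. Their median was 89662 bp (quartiles 66024 and 130048 bp), and they ran from 40737 to 465416 bp. More than 100 kb was reached by 419 isolated peaks (42.2%) and more than 200 kb by 76. The nearer neighbour stood at a median of 29962 bp and the farther one at 56186 bp. For 341 isolated peaks (34.3%) the farther neighbour was more than 2 times as distant as the nearer one. Neither side was favoured, with the longer stretch toward higher coordinates in 487 of 994 (49.0%). Together the stretches covered 87.0 Mb, 34.6% of the 251.4 Mb of interior sequence, while the isolated peaks in them covered 0.313% of the interior. All interior peaks together covered 6.40% of it. Assembly gaps were not analysed here.

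The longest stretch, 465416 bp, surrounded chrVII:3474200-3474399, a peak of the smallest width, 200 bp, with a fold enrichment of 1.68. The next, of 402072 bp, surrounded chrII:12524737-12526584, which had a fold enrichment of 6.72 and a width of 1848 bp. It was followed by chrVII:5826778-5827106 with 386283 bp and a fold enrichment of 3.99, and by chrI:24209088-24209304 with 357422 bp and a fold enrichment of 2.03. Stretches of 352749 and 351921 bp surrounded chrIX:2736212-2736578, with a fold enrichment of 2.33, and chrXIII:7630896-7631221, with 3.33. Those of 345670 and 343370 bp surrounded chrII:4774100-4774398, with a fold enrichment of 2.18, and chrI:3508812-3509043, with 1.79. The last 2 of the 10 longest, 330996 and 325251 bp, surrounded chrXIV:4914972-4915872 and chrII:2694105-2694953, with fold enrichments of 2.36 and 3.64. Of these 10 peaks, 9 had a fold enrichment under 5 and 7 were narrower than 400 bp, where over all 994 isolated peaks 67.0% were under 5 and 37.0% narrower than 400 bp. The peak on chromosome II of 6.72 was the exception to the first.

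Over all isolated peaks the tie to the length of the stretch was weak. In 4 equal classes of stretch length, short to long, the median fold enrichment was 3.36, 3.69, 3.09 and 2.80, and the share with at least 5 was 34.9%, 37.1%, 32.3% and 27.7%. The median width was 601, 700, 642 and 479 bp. The second class was thus the highest on all 3 measures and the longest stretches the lowest. The rank correlation of fold enrichment with stretch length was −0.11 (Spearman, 994 peaks, of which consecutive ones share a stretch). The 328 isolated peaks of at least 5 stood in stretches with a median of 84083 bp, and the 666 weaker ones in stretches with a median of 91651 bp.

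**Figure D3:**
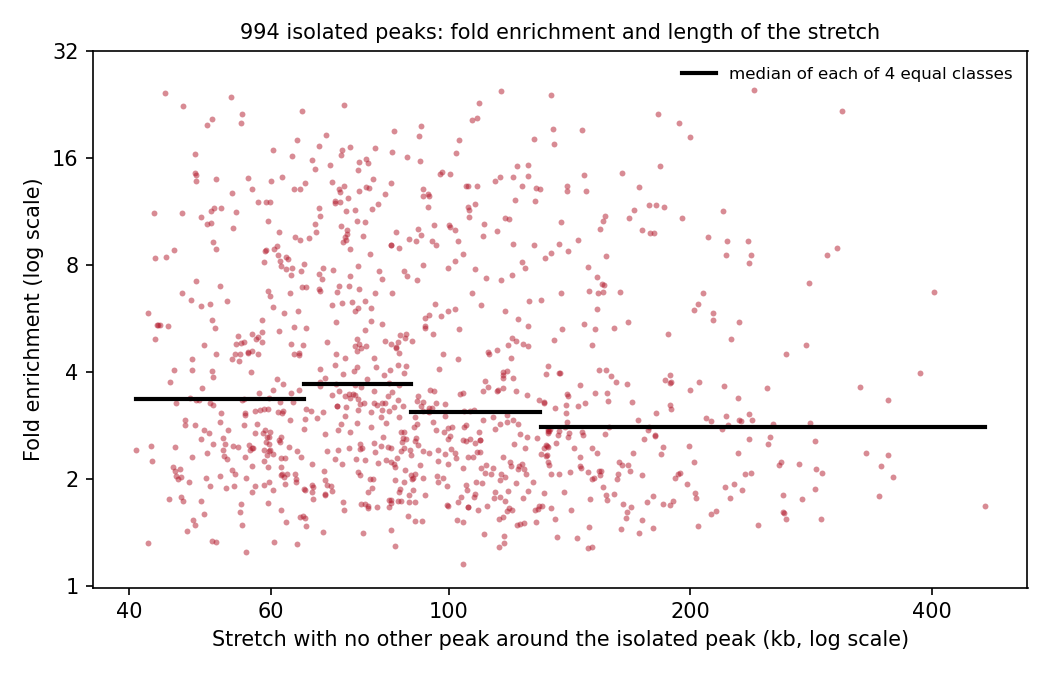
Fold enrichment (vertical axis, log scale) against the length in kb of the stretch with no other peak (horizontal axis, log scale) for 994 isolated peaks, 1 point each. Black lines give the median in each of 4 equal classes of stretch length, 3.36, 3.69, 3.09 and 2.80, weak peaks are seen along the whole range, and of the 10 longest stretches 1 surrounds a peak of at least 5.

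The fold enrichments of isolated peaks ended at 25.0, below the highest value of all interior peaks, 32.9. The first was chrXIV:5046657-5048296, 1640 bp wide with a fold enrichment of 25.0, which had no other peak for 130784 bp on the left and 107330 bp on the right. Its neighbours were weak, with fold enrichments of 2.36 and 1.77. The second was chrXV:7164207-7166177 with a fold enrichment of 24.8, between neighbours of 2.02 and 1.51. The third, chrXX:9596044-9597734 with 24.4, stood close to the limit, with neighbours at 20888 and 21783 bp. The fourth, chrV:6085016-6086925 with 24.2, had strong neighbours, of 11.4 and 12.9, at 63648 and 68424 bp. It was followed by chrIX:10599205-10600831 with 23.9, chrXX:3073050-3075136 with 23.0, chrV:9479518-9481691 with 22.6 and chrIX:4053969-4055675 with 22.5. The last of the 10 were chrII:17862708-17864067 with 21.8, in a stretch of 308889 bp, and chrIX:6287442-6288878 with 21.7. These 10 peaks were 1360 to 2174 bp wide, 5 of them stood in stretches longer than 100 kb, and 3 of them had neighbours under 5 on both sides. Over all 994 isolated peaks, 42.2% stood in stretches longer than 100 kb. Neighbours were under 5 on both sides for 37.5% of the isolated peaks of at least 5 and for 38.3% of the weaker ones.

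Each of the 17 chromosomes had an isolated peak of at least 17.1. Besides those named, the highest on chromosome XVI was chrXVI:5481175-5482988 with a fold enrichment of 21.3, and that on chromosome X was chrX:3927888-3929812, also with 21.3. Chromosome I had chrI:20511259-20513608 with 20.7, chromosome XVII had chrXVII:9361258-9362453 with 20.5 and chromosome XIII had chrXIII:14047385-14049742 with 20.1. On 6 chromosomes the highest value was under 20. These were chrVII:17868275-17870232 with 19.8, chrXVIII:6541564-6543191 with 19.7, chrXII:5067549-5069323 with 19.3, chrIII:6871610-6872858 with 18.4, chrVIII:7863990-7866006 with 17.5 and chrVI:2724380-2725734 with 17.1. The 3 widest isolated peaks were strong as well. They were chrI:14979237-14981696 with 2460 bp and a fold enrichment of 14.1, chrXIII:14375140-14377589 with 2450 bp and 11.6, and chrVII:25362218-25364659 with 2442 bp and 16.9.

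A small set went against the tie of width and strength. Of the 269 isolated peaks under 300 bp, 7 (2.60%) had a fold enrichment of at least 5, and 1.19% of the non-isolated peaks of that width did. They were singled out after their values were seen. The highest, chrII:17594712-17594938, was 227 bp wide with a fold enrichment of 8.96 and a −log10 q-value of 723.1, where isolated peaks with a fold enrichment of 5 to 10 had a median width of 1121 bp and a median −log10 q-value of 254.5. It stood next to the strong peak of chromosome II named above, which began 267769 bp further on. The other 6, on chromosomes I, XII, XVII, XVI, VI and III, had fold enrichments from 5.04 to 6.77 and widths from 219 to 287 bp.

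The peaks on either side of an isolated peak were themselves somewhat weaker than the neighbours of other peaks. The neighbours of isolated peaks had a median fold enrichment of 3.45 and a share of 38.2% with at least 5, against 4.19 and 45.3% for the neighbours of non-isolated peaks below the same width. A neighbour that is isolated too counts in both roles, and by the rule every neighbour of an isolated peak borders a long stretch. The lower values therefore in part repeat the difference between the groups given above. In the share of neighbours that reached 5, strong and weak isolated peaks were alike, at 38.1% and 38.2%. In non-isolated peaks these shares were 48.2% and 43.2%. Both neighbours were under 5 for 123 of the 328 strong isolated peaks (37.5%) and for 255 of the 666 weak ones (38.3%). An isolated peak was stronger than both its neighbours in 31.2% of cases and weaker than both in 33.9%, and the shares were close to these in non-isolated peaks, at 30.5% and 35.3%.

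Isolated peaks could follow each other along the chromosome, since the stretch between 2 consecutive ones counts for both and a peak beside an isolated one already has 1 of its 2 sides free. Runs are therefore in part built into the rule and are given as counts only. As single isolated peaks between non-isolated ones stood 427, while 567 (57.0%) belonged to runs of 2 or more, among them 150 pairs and 51 runs of 3. The share that reached 5 was 30.2% in runs of 2 or more and 36.8% among single ones. In the 8 runs of 5 or more, 46 of 54 peaks (85.2%) were under 5, against 67.0% of all isolated peaks. The longest run had 9 isolated peaks on chromosome IX, from 11423040 to 11974918, spaced over 551.9 kb, or 747.0 kb with the outer stretches. The second peak of this run, chrIX:11495544-11497637, was 2094 bp wide with a fold enrichment of 13.1. The other 8 had fold enrichments of 1.15 to 3.06 and widths from 244 to 789 bp. The lowest value of all isolated peaks, 1.15, was the eighth peak of the run, at chrIX:11928259-11929047, and its −log10 q-value was 2.65.

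Whether isolated peaks lie in wider poor regions was measured beyond the distance that the rule used. Between 30 and 100 kb from the summit, on both sides, other peaks had a density of 53.4 ± 4.78 per Mb around isolated peaks and of 75.0 ± 6.58 per Mb around peaks with a neighbour within 20 kb on both sides (mean and SD of the averages of 17 chromosomes). It was lower around isolated peaks on 17 of 17 chromosomes, and the 2 ranges, 42.7 to 62.0 and 64.0 to 84.0, did not overlap. This distance class still takes in parts of the empty stretches of the isolated peaks, whose farther neighbour stood at a median of 56186 bp. The count of chromosomes and the separate ranges therefore in part restate how the groups were chosen. Between 100 and 250 kb the densities were 58.3 ± 3.61 around isolated peaks and 67.6 ± 5.52 around crowded ones, lower on 16 of 17 chromosomes (not on VI). Between 250 and 500 kb they were 60.2 ± 4.65 and 63.4 ± 4.95, lower on 10 of 17. Over the whole interior the density was 61.9 ± 4.01 per Mb (mean and SD of 17 chromosomes). Between 30 and 100 kb isolated peaks lay below this value and crowded ones above it. Peaks free on 1 side only had 65.9 ± 4.93 there. Between 100 and 250 kb the peaks free on 1 side only had 64.1 ± 4.14, again between the isolated and the crowded ones. The sparse surroundings, with these stretches counted in, thus reached some way past 20 kb. The interior value is counted per length of sequence, while the others are averages around peaks, to which dense regions add more. How far each group lay from the interior value is therefore not compared. Beyond 250 kb the difference between isolated and crowded peaks was smaller than the spread between chromosomes. A dense region adds more peaks to the crowded group than a sparse region does, so part of the difference is fixed by the way the groups are formed. Other peaks were still present at 53.4 per Mb between 30 and 100 kb, so the word desert fits only the stretch next to each isolated peak.

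**Figure D4:**
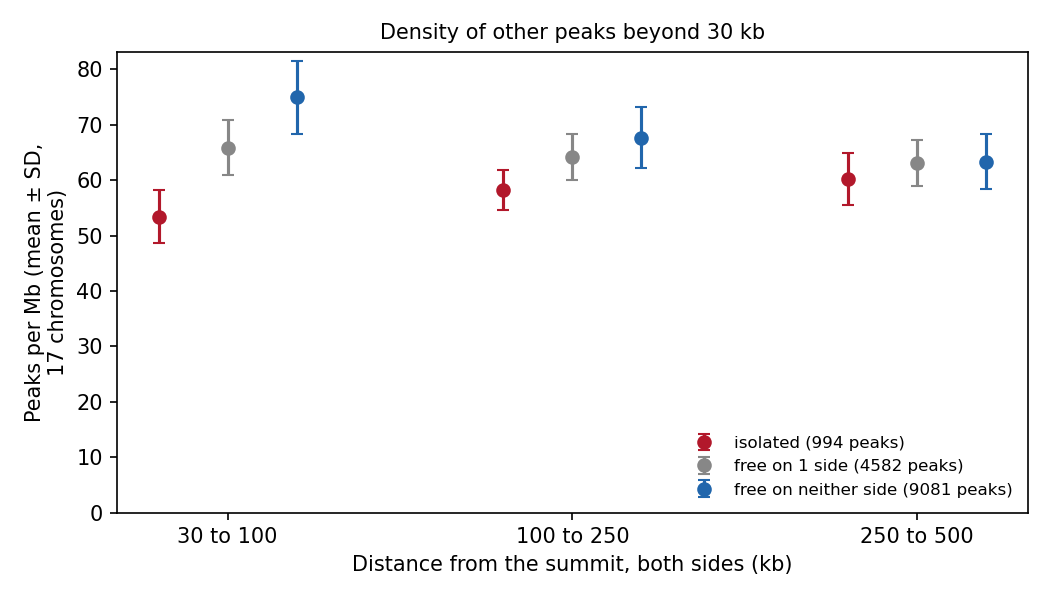
Density of other peaks (per Mb, mean ± SD of the averages of 17 chromosomes) at 30 to 100, 100 to 250 and 250 to 500 kb from the summit, both sides summed, around isolated peaks, peaks free on 1 side and peaks free on neither side. The isolated peaks are lowest in the nearest class, 53.4 per Mb, and the groups come together with distance.

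Isolated peaks were spread evenly over the chromosomes. Their number ran from 28 on chromosome V to 106 on chromosome I, which have the shortest and the longest interior. Per Mb of interior it was 3.93 ± 0.331 (SD, n = 17 chromosomes), from 3.40 on chromosome V to 4.39 on chromosome I. As a share of interior peaks it was 6.37% ± 0.670, from 5.15% on chromosome III to 7.39% on chromosome VI. Chromosome III also had the highest density of all interior peaks, 71.3 per Mb. Across the 17 chromosomes the rank correlation of the isolated share with that density was −0.38 (Spearman, description only, since the share is counted in the same peaks).

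Strength varied more between chromosomes in isolated peaks than in the others. The share with a fold enrichment of at least 5 was 34.0% ± 9.17 in isolated peaks, from 20.4% on chromosome X (10 of 49) to 53.6% on chromosome V (15 of 28). In non-isolated peaks below the same width it was 42.2% ± 3.39, from 35.5% on chromosome XVI to 47.5% on chromosome XIII. The numbers behind each value are smaller in isolated peaks, and how much of their wider spread comes from counting was not tested. The share was lower in isolated peaks on 14 of 17 chromosomes and higher on II, V and VIII, where it was 42.5%, 53.6% and 48.1% in isolated peaks, against 39.2%, 41.5% and 42.0% in non-isolated ones. The median fold enrichment was lower in isolated peaks on 13 of 17 chromosomes (not on II, V, VIII and XVI) and averaged 3.44 ± 0.761 in isolated peaks and 3.81 ± 0.379 in non-isolated ones, a difference smaller than the spread of the isolated medians. The median width was lower on 14 of 17 (not on V, VIII and XVI), at 618 ± 146.1 bp in isolated peaks and 769 ± 56.9 bp in non-isolated ones.

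**Figure D5:**
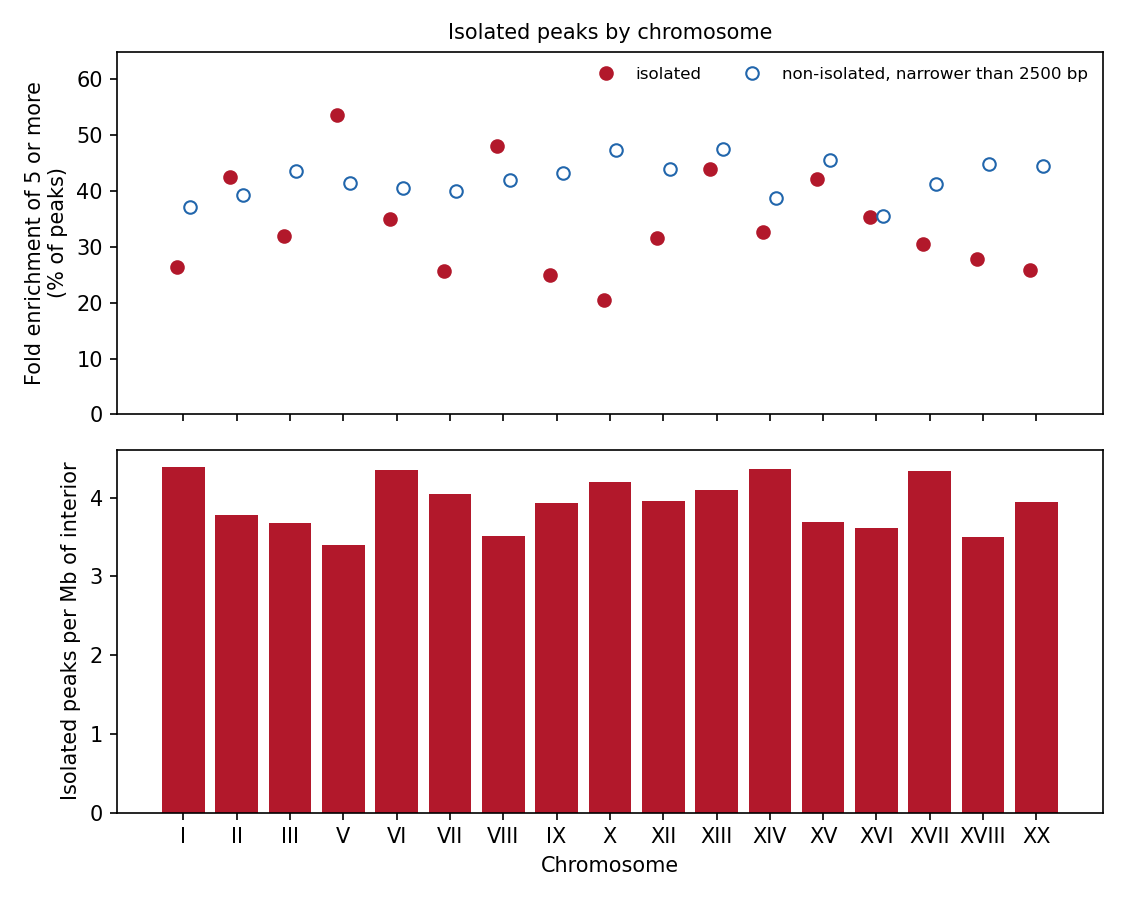
Upper panel, share of peaks (%) whose fold enrichment was 5 or more on each of 17 chromosomes, for isolated peaks (filled) and non-isolated peaks narrower than 2500 bp (open). Lower panel, isolated peaks per Mb of interior. The filled points are lower on 14 of 17 chromosomes, and the bars lie between 3.40 and 4.39 per Mb.

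Along the chromosomes, the number of isolated peaks showed no steady trend within the interior. Cut into 10 equal parts and counted over all 17 chromosomes, the interior held 84 to 114 isolated peaks per part, and their share of the part's peaks ran from 5.30% in the ninth to 7.55% in the third. The share of isolated peaks that reached 5 was 23.9% in the first part and 27.4% in the last, against 32.3% to 36.6% in the 8 parts between. Non-isolated peaks below the same width also had their lowest shares in the outer parts, with 37.3% in the first and 37.6% in the last, against 38.2% to 47.8% between.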

How the data were processed

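The authors mapped the reads of 3 marine and 3 freshwater ATACseq libraries to gasAcu1 and took out PCR duplicates and mitochondrial reads. All libraries were reduced to the coverage of the smallest, and MACS2 called peaks on the merged libraries. The submitters' processing notes also name SAMtools. The aligner, and whether the naked DNA served as background, are not given in the sources used here. The deposited list holds 1 fold enrichment (a ratio), −log10 p-value, −log10 q-value and score per peak, and the −log10 p-values were not used. The deposited score column repeats the q-value on another scale and was not used further. The list holds no read counts, so no interval from depth is given for a peak.

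Distances were taken between peak edges, and a peak was isolated if both exceeded 20000 bp. The last peak on a chromosome stood for its end. Coordinates are 1-based (gasAcu1). Strong and weak refer to a fold enrichment of 5. Values were described without tests. The rule and the lists of peaks were chosen with earlier results of these data known. Peaks named were the 10 isolated peaks with the highest fold enrichment, the highest on each chromosome, the 10 with the longest stretches, the 3 widest, the longest run and the peaks next to each limit. The code that applies the rule was checked on simulated data, 20 lists with known isolated peaks, which does not test the choice of limits. Alternatives changed the distance, width and end limits, measured from summits, kept only q-values of at most 1e-10, joined peaks closer than 500 bp or used all 21 chromosomes. No genes or sequences were looked up, because the gene table at hand belongs to another assembly. Scripts ran in Python 3.11.15 with pandas 2.3.3, NumPy 2.4.6 and SciPy 1.17.1, and figures were drawn with Matplotlib 3.10.9.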

Additional observations from a re-analysis of the deposited data

How the results depend on the processing

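Of 63 values recomputed under 11 settings, 49 stayed within the spread between chromosomes, the Wilson interval or 1.5 times the count. The band for the ratio of median fold enrichments, isolated over non-isolated, was 0.649 to 1.09 and includes 1. That for the isolated median, 2.49 to 4.01, includes the non-isolated median of 3.74. Staying within these bands therefore does not show that a difference was kept. A change of direction was defined for the ratio only, which stayed below 1 wherever it was computed. The number of isolated peaks, 994, became 2568 with a distance of 10000 bp and 493 with 30000 bp, as a longer distance leaves fewer by construction, and lay between 715 and 1275 under the other settings. Their share of interior peaks, 6.40%, became 16.5% and 3.17% with these 2 distances, 6.91% between summits, 5.45% with widths under 1500 bp, 8.07% with q-values of at most 1e-10, 7.93% with peaks closer than 500 bp joined and 18.0% in a list cut to a fold enrichment of at least 5, a setting chosen after seeing the data that also moved the median width of 603 bp to 1427 bp. The share of isolated peaks that reached 5, 33.0%, became 40.5% at 10000 bp, 29.6% at 30000 bp, 23.0% with widths under 1500 bp and 38.1% with q-values of at most 1e-10. The median fold enrichment of isolated peaks was 0.868 times that of non-isolated peaks below the same width. It was 0.744 times with q-values of at most 1e-10 and 0.766 times with close peaks joined, but 0.998 times at 10000 bp and 0.994 times with widths under 1500 bp, so that under those 2 settings the medians were nearly equal. No paired analysis was possible because 1 list holds all 6 libraries together, and for the same reason no replicate could be left out. The list holds no read counts, so the precision of a single fold enrichment is not given.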
